A study of Mus musculus with 3 samples.

Results

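The RNA polymerase II machinery was described here through 92 protein-coding genes. They were taken by symbol from 55536 annotated genes, 22028 of them protein-coding. The symbols covered 13 polymerase subunit genes (Polr2), 30 Mediator genes (Med), 13 general factor genes (Gtf2a, b, e, f and h), 23 TBP-associated factor genes (Taf) and 4 genes of the negative elongation factor (Nelf). Another 9 were named directly, namely Cdk7, Cdk9, Ccnt1, Ccnt2, Hexim1, Aff4, Ell, Ell2 and Ell3. A pattern for Supt genes ending in h matched none of these symbols, and elongation factors such as Supt5 are therefore given separately below. The rule reads symbols and uses no measured value.

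The cells were macrophages, phagocytes that were grown in culture from the bone marrow of the C57BL/6J mouse strain. They had 100 ng/ml of Lipid A, the Toll-like receptor 4 agonist of bacterial lipopolysaccharide, for 12 h, then 12 h after washout without it, and 100 ng/ml once more for 40 min. RNA of the chromatin fraction was sequenced after ribosomal RNA depletion, in 3 libraries of this single group, and neither untreated nor once-treated cells were analysed here, which leaves levels to describe and no response to measure. Replicates 1, 2 and 3 started from 1000, 250 and 500 ng of RNA and held 13802716, 17187524 and 16502809 expected counts in genes. The labels number them as biological replicates but give all 3 the same donor entry of the strain, with age and sex not recorded, so the spread between them may be technical. All 10 macrophage markers examined were detected, with a summed level of 1120, 1254 and 1159 transcripts per 1000000 (TPM) in replicates 1, 2 and 3. Of 32 markers of other cell types, 3 passed the detection limit, all below 1 TPM in every library, and the 4 natural killer cell markers were at 0. The 3 were the dendritic cell marker Zbtb46 and the fibroblast markers Col1a1 and Col1a2. Col1a1 had 0, 0.37 and 0.42 TPM and Col1a2 had 0, 0.29 and 0.44 TPM in replicates 1, 2 and 3.

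RNA polymerase II transcribes protein-coding genes. The general factors TFIIA, TFIIB, TFIID (TBP with its TAFs), TFIIE, TFIIF and TFIIH place it at the promoter, and Mediator relays signals from transcription factors to it through a head, a middle, a tail and a detachable kinase module. Shortly after initiation the polymerase pauses under the negative elongation factor NELF. The kinase P-TEFb, made of Cdk9 and a T-type cyclin, releases it, either from the inactive store held by Hexim1 and the 7SK RNA or within the super elongation complex around Aff4 and an Ell protein. In macrophages this release step is known for its part in the fast induction of inflammatory genes.

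Of the 92 genes, 84 were detected, meaning a mean of at least 10 expected counts over the 3 libraries. That is 91.3%, against a background of 49.7% of all protein-coding genes. Their median level was 7.75 TPM, with library medians of 6.07, 9.17 and 7.22 TPM in replicates 1, 2 and 3, against 7.32 TPM over all detected protein-coding genes. Ranked among all protein-coding genes the median of the 92 stood at percentile 73.3. Among detected protein-coding genes alone, the median of the 84 detected members stood at percentile 51.4. Most of the machinery was thus above the detection limit, with a median close to that of other detected genes. The 8 undetected genes were the polymerase subunit genes Polr2d and Polr2h, the Mediator genes Med18, Med30 and Med31, the elongation gene Ell3, and Taf7l and Gtf2a1l, the last 2 at 0 counts in every library. A count of 0 allows up to 0.217, 0.175 and 0.182 counts per 1000000 (CPM) in replicates 1, 2 and 3, taken as 3 counts of each library and covering counting error only. In bulk RNA, fewer cells with a transcript and less of it per cell cannot be told apart, and a level on chromatin does not separate RNA being made from RNA retained there.

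**Figure D1:**
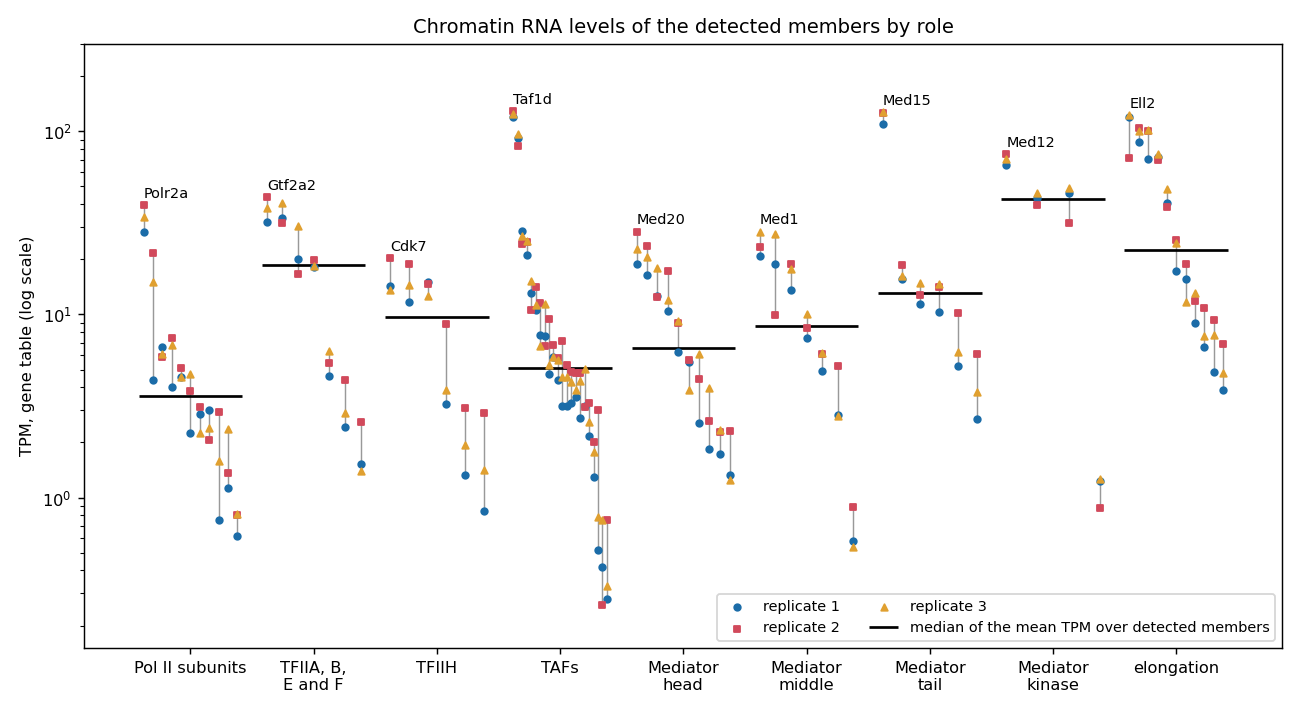
Gene-table TPM of each of the 84 detected members (log scale), grouped by role and ordered by mean within a role. Points are the 3 libraries, grey lines their range and black bars the median of the mean TPM. The median is 42.6 TPM for the Mediator kinase module and 22.5 TPM for elongation factors, against 3.59 TPM for polymerase subunits.

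The levels differed by role, as the plot of TPM by role shows. In the gene table, median TPM over the detected genes was highest for the Mediator kinase module (42.6) and for elongation factors (22.5). TFIIA, B, E and F (18.7), the Mediator tail (13.0), TFIIH (9.71), the middle (8.64) and the head (6.59) followed. The TAFs (5.11) and the polymerase subunits (3.59) were lowest. Roles were not ranked in the separate quantification made from the reads. In transcripts annotated protein_coding alone the kinase module (24.5) and the elongation factors (11.3) kept the first places, but the tail (6.995) stood above TFIIA, B, E and F (5.47), and TFIIH (1.96) was lowest, below the polymerase subunits (2.65). Levels also differed within a role, and among the 11 detected polymerase genes the highest mean was 45.7 times the lowest. Levels ranked with gene span at a Spearman rho of 0.31 over the 84 genes and 0.18 over the 10952 detected protein-coding genes, and with exon bases at 0.47 and 0.26. These are correlations across genes, which are not independent replicates, and all of them share the same 3 libraries. Of the members spanning under 10 kb, 28 of 33 were detected, with a median of 4.35 TPM, against 12.0 TPM for 39 of 42 members of 10 to 50 kb and 13.0 TPM for all 17 longer ones. Over all protein-coding genes 31.3%, 59.6% and 60.5% were detected in these bins, with medians of 4.49, 7.20 and 12.1 TPM, so a rise with span was not particular to the members.

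Polr2a (ENSMUSG00000005198.15, chromosome 11, 69733997 to 69758637, mm10), which encodes the largest subunit with the C-terminal repeats that kinases phosphorylate, led the polymerase genes. It had 28.1, 39.7 and 34.3 TPM in replicates 1, 2 and 3 (34.0 ± 5.80, SD, n = 3). Every library of Polr2a lay above every library of the other 12 subunit genes. The next was Polr2b, the second-largest subunit, with 4.37, 21.6 and 14.97 TPM (13.7 ± 8.71). Its low value in replicate 1 did not appear in its counts, which were 175, 263 and 150. From there down the order was not settled. Polr2m, a polymerase-associated protein also called Gdown1, had 6.18 ± 0.45 TPM and Polr2c 6.06 ± 1.80 TPM, and in 8 of the 10 neighbouring pairs of subunit genes the ranges over libraries overlapped. Polr2e, Polr2f, Polr2h, Polr2k and Polr2l, the small subunits shared by all 3 nuclear polymerases, lay between 0.743 ± 0.107 TPM for Polr2l and 3.59 ± 1.25 TPM for Polr2k. Their depth was thin, with mean counts of 7.33 for Polr2h, 12.3 for Polr2f, 13.7 for Polr2k, 14.5 for Polr2l and 27.3 for Polr2e.

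The level of Polr2b turned on 1 short transcript. Polr2b-203, a retained-intron transcript of 261 bases, received 0, 8.96 and 7.2 counts and 0, 14.3 and 11.2 TPM in replicates 1, 2 and 3. The protein-coding Polr2b-201, of 4145 bases, received 166, 240 and 138 counts and 3.02, 4.32 and 2.66 TPM. About 5.39 counts a library therefore carried 62.2% of the gene's TPM, because TPM divides by length. Taf12, a TFIID subunit gene, had the same feature at its smallest. A single count in replicate 2 for Taf12-203, of 241 bases, gave 2.09 of that library's 3.02 TPM, against 0.52 and 0.78 TPM for the gene in replicates 1 and 3. In Gtf2a1, the large TFIIA subunit gene, the 282-base transcript Gtf2a1-203 had 14.8, 11.5 and 18.4 TPM in the gene-level quantification and 63.0, 72.8 and 94.2 TPM in a separate quantification made from the reads. The 3' parts of Polr2b-203 (140 bases, chr5:77310612-77313271, plus strand) and Gtf2a1-203 (207 bases, chr12:91586625-91589564, minus strand) are shown to make plain what these short transcripts share with the coding ones. They run 5' to 3' on GRCm38 (mm10) from the annotated start codon to the transcript's end, in the GENCODE M21 sequence. Lower case is coding sequence also present in the full-length transcript (92 and 132 bases), and capitals are intron sequence read past the 5' splice site (48 bases in Polr2b-203 and 75 bases in Gtf2a1-203).
Polr2b-203: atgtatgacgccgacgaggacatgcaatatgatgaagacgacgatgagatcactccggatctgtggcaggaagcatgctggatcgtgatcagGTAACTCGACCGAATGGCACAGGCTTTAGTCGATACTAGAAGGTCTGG
Gtf2a1-203: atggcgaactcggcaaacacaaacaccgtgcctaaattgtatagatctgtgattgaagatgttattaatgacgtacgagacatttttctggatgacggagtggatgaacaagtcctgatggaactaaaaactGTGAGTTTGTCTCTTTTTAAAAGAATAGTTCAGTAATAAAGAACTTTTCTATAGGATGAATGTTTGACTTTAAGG
In both, the capitals alone set the printed stretch apart from the spliced coding transcript, so a read within the lower-case part matches both.

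Among the TFIIA, TFIIB, TFIIE and TFIIF genes 7 of 8 were detected. TFIIA stood highest, with 32.2, 43.6 and 37.9 TPM for Gtf2a2 (37.9 ± 5.70), the small subunit, and 33.6, 31.5 and 40.6 TPM for Gtf2a1 (35.2 ± 4.80). In the gene table the ranges of the 2 subunits overlapped. From the reads they did not, with 86.3, 95.1 and 118 TPM for Gtf2a1 and 49.8, 61.5 and 53.8 TPM for Gtf2a2, and in protein_coding transcripts Gtf2a1 had 20.3 ± 1.74 TPM, against 2.46 ± 1.18 TPM for Gtf2a2. Gtf2b, the single protein of TFIIB that bridges promoter and polymerase, had 20.0, 16.7 and 30.5 TPM (22.4 ± 7.21), lowest in replicate 2. Gtf2f1, the large TFIIF subunit, had 18.2, 19.7 and 18.3 TPM (18.7 ± 0.85). Its partner in TFIIF, Gtf2f2, had 5.47 ± 0.88 TPM, and the ranges of the pair did not overlap. Both TFIIE genes were low, with 2.42, 4.38 and 2.90 TPM for Gtf2e2 (3.23 ± 1.02) and 1.52, 2.57 and 1.40 TPM for Gtf2e1 (1.83 ± 0.64).

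All 6 TFIIH genes in the list were detected. Cdk7, the TFIIH kinase that phosphorylates the C-terminal repeats of Polr2a, had 14.2, 20.3 and 13.6 TPM (16.0 ± 3.68). The core subunit genes Gtf2h2 (14.96 ± 3.57) and Gtf2h1 (14.1 ± 1.33) had about the same level, with overlapping ranges. Gtf2h3 had 3.23, 8.85 and 3.88 TPM, more than 2-fold higher in replicate 2 than in either other library. Gtf2h5 had 1.32, 3.09 and 1.94 TPM (2.12 ± 0.90) and Gtf2h4 had 0.84, 2.91 and 1.41 TPM (1.72 ± 1.07), the lowest of TFIIH.

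The TAFs were grouped by symbol, so not all of them are TFIID subunits. Among them, the 2 highest genes are not known as core TFIID subunits. Taf1d (ENSMUSG00000031939.16, chromosome 9, 15306214 to 15316991), part of the RNA polymerase I factor SL1, had 119, 129 and 124 TPM (124 ± 4.86), the highest mean of all 92 genes in the gene table. From the reads it had 105 TPM, below Aff4 (155), Med15 (148), Taf15 (147) and Ell2 (143). Only 7.49 ± 1.04 TPM of this lay in transcripts annotated protein_coding, and 54.4% lay in processed transcripts, nearly all of it in the 491-base Taf1d-206. The exons of Taf1d also share bases with small nucleolar RNA genes on its own strand, 1 of which, Gm25791, was listed at 3833 TPM from a mean of 130 counts, so reads at these positions could be split between them. Taf15, an RNA-binding protein of the FET family, had 92.2, 83.1 and 96.7 TPM (90.7 ± 6.96). Taf1, the largest TFIID subunit, followed at 28.6, 24.3 and 27.0 TPM (26.6 ± 2.15) and Taf2 at 23.7 ± 2.28 TPM. The remaining 18 detected TAFs were at most 13.0 TPM, and 11 of the 22 were under 5 TPM. The lowest were Taf4b with 0.42, 0.26 and 0.75 TPM and Taf9b with 0.28, 0.75 and 0.33 TPM. Ranges overlapped in 16 of the 21 neighbouring pairs.

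TAF paralogs differed widely, and the canonical gene was the higher of most pairs. On the scale of log2(TPM + 1), Taf4b minus Taf4 was -3.24 ± 0.06 and Taf9b minus Taf9 was -1.76 ± 0.24 (SD, n = 3), each negative in 3 of 3 libraries. The germ-line paralog Taf7l was at 0 counts in all 3 libraries, against 8.56 ± 2.44 TPM for Taf7. Taf6l and Taf5l, both known as subunits of the SAGA coactivator, went the other way, with Taf6l above Taf6 by 0.84 ± 0.33 and Taf5l above Taf5 by 0.45 ± 0.07, both in 3 of 3 libraries. In protein_coding transcripts alone these margins were smaller, with 2.55 ± 0.42 TPM for Taf6l and 2.01 ± 0.32 TPM for Taf6. Taf5l had 1.83, 2.00 and 1.88 TPM in them in replicates 1, 2 and 3, against 1.29, 2.01 and 1.77 TPM for Taf5. The order of Taf5l and Taf5 thus did not hold in replicate 2. The exact sign-flip permutation test over 3 libraries cannot go below p = 0.25, so none of these differences could reach 0.05. Of the shared exons, 73.8% of the Taf9 exon bases coincide with Ak6 on the same strand, 45.9% of those of Taf10 with Ilk and 26.5% of those of Taf6 with Ap4m1 on the opposite strand, and whether the counting used strand is not given in the sources used here. Levels of these 3 genes are uncertain because of the shared bases, and for Taf9 this holds whatever the use of strand. Over 20% was also shared by Polr2i (26.8%, with Tbcb), Med31 (26.3%), Med20 (21.4%) and Med7 (21.2%), each with a gene on the opposite strand.

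In the Mediator head, 10 of 12 genes were detected. Med20 had 18.9, 28.4 and 22.8 TPM (23.4 ± 4.76), Med8 had 16.4, 23.8 and 20.5 TPM (20.2 ± 3.66) and Med11 had 12.7, 12.5 and 18.0 TPM (14.4 ± 3.14). Most of the TPM of Med20 was not assigned to coding transcripts. Those annotated as retained intron held 85.8% ± 1.24 of it, and protein_coding ones 3.28 ± 0.41 TPM. Intron reads of unspliced RNA on chromatin were not separated from reads of retained-intron transcripts. Counting protein_coding transcripts alone, Med11 came first in the head, at 10.9 ± 1.47 TPM. The head scaffold gene Med17 had 5.48, 5.66 and 3.86 TPM, and Med29 and Med22 were the lowest detected head genes, with 1.73, 2.27 and 2.33 TPM and 1.32, 2.31 and 1.24 TPM.

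The middle module was led by Med1, the subunit that nuclear receptors contact, with 20.9, 23.5 and 28.4 TPM (24.2 ± 3.77). Med21 had 19.0, 9.99 and 27.4 TPM (18.8 ± 8.69), and replicate 2 was the lowest library. Med7 had 16.7 ± 2.71 TPM and Med26, which recruits elongation factors to Mediator, 7.47, 8.40 and 10.1 TPM (8.64 ± 1.31). Med10 had 5.70 ± 0.70 TPM, and 92.8% of its exon bases coincide with the non-coding gene Gm26819 on the opposite strand. Med4 (2.81, 5.24 and 2.80 TPM) and Med9 (0.58, 0.89 and 0.54 TPM) were lowest.

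The tail had 1 gene far above the rest. Med15 (ENSMUSG00000012114.17, chromosome 16, 17651208 to 17732891), a subunit that activators bind, had 109, 126 and 128 TPM (121 ± 10.01), and no library of another tail gene reached 20 TPM. Transcripts annotated as retained intron were assigned 68.3% ± 2.78 of it. In protein_coding transcripts it had 25.7 ± 3.14 TPM, still the highest coding level of the tail. Med23, at 16.9 ± 1.60 TPM, and the backbone gene Med14, at 13.0 ± 1.79 TPM, followed, and Med25 (5.26, 10.1 and 6.22 TPM) and Med16 (2.70, 6.11 and 3.77 TPM) were lowest.

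The kinase module, which docks on Mediator and carries Cdk8 or Cdk19 with cyclin C, held 3 of the 14 members that ranked above 90% of protein-coding genes. Med12 (ENSMUSG00000079487.11, chromosome X, 101274030 to 101297465), the activator of its kinase, had 65.2, 75.0 and 70.8 TPM (70.3 ± 4.91). Its paralog Med12l had 1.23, 0.88 and 1.27 TPM (1.13 ± 0.22). On the log2(TPM + 1) scale Med12 minus Med12l was 5.07 ± 0.24, against 4.33 from the reads and 4.26 in protein_coding transcripts. Med13l had 43.3, 39.9 and 45.9 TPM (43.0 ± 3.05) and Med13, the link between kinase and core Mediator, 45.8, 31.5 and 49.0 TPM (42.1 ± 9.34). The order of Med13 and Med13l was not settled. Med13 was higher in replicates 1 and 3 and lower in replicate 2, and the mean log2 difference was -0.05 ± 0.24. In protein_coding transcripts alone it was 0.71, in favour of Med13 (30.7 ± 4.58 TPM, against 18.3 ± 0.86 TPM for Med13l). The kinase genes themselves had 29.6 ± 5.07 TPM for Cdk8 and 4.76 TPM for Cdk19, and their cyclin gene Ccnc had 6.55 TPM.

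Elongation factors had the highest median level of the groups with more than 4 genes, with 5 of 12 genes ranked above 90% of protein-coding genes. Ell2 (ENSMUSG00000001542.7, chromosome 13, 75706757 to 75772364), the elongation factor subunit of the super elongation complex, had 120, 71.6 and 122 TPM in replicates 1, 2 and 3 (105 ± 28.6). Replicate 2 stood well below the other libraries. Cdk9 (ENSMUSG00000009555.16, chromosome 2, 32705784 to 32713076), the P-TEFb kinase, had 87.2, 104 and 99.9 TPM (97.2 ± 8.94). The cyclin genes Ccnt2 and Ccnt1 had 70.6, 100 and 102 TPM (90.8 ± 17.6) and 40.4, 38.5 and 48.5 TPM (42.5 ± 5.30). Aff4, the scaffold of the super elongation complex, had 72.9, 69.4 and 75.6 TPM (72.6 ± 3.12). The ranges of Ell2, Cdk9 and Ccnt2 overlapped, as did those of Ccnt2 and Aff4, while Ccnt1 lay below all 4 in every library.

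Genes whose products hold the polymerase or P-TEFb back lay below these 5. Of the NELF genes, Nelfcd had 17.2, 25.5 and 24.7 TPM (22.5 ± 4.56) and Nelfe 15.7, 18.9 and 11.7 TPM (15.4 ± 3.63). Nelfb had 4.86, 9.32 and 7.77 TPM (7.32 ± 2.26) and Nelfa 3.88, 6.88 and 4.80 TPM (5.19 ± 1.54). The NELF subunits were thus spread over a range of levels, as the polymerase subunits were. Hexim1, the inhibitor of P-TEFb, had 9.02, 11.9 and 13.1 TPM (11.3 ± 2.09). No library of these 5 genes overlapped with any library of Ccnt1, the lowest of the 5 positive factors above, but Ell, also a positive factor, was lower than Nelfcd, Nelfe and Hexim1 in mean TPM. That order depended on the measure. In protein_coding transcripts Ell (8.36 TPM) stood above Nelfcd (6.53) and Nelfe (4.48) and below Hexim1. From the reads Ell (12.8 TPM) stood above Hexim1 (8.50) and below Nelfcd and Nelfe. Hexim2, the paralog of Hexim1, had 1.49 TPM.

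The paralogs Ell, Ell2 and Ell3 were far apart. Ell had 6.60, 10.8 and 7.65 TPM (8.36 ± 2.20), and Ell3 was undetected with 7, 7 and 9 counts (0.81, 0.28 and 0.47 TPM). On the log2(TPM + 1) scale Ell minus Ell2 was -3.99, -2.62 and -3.83 in replicates 1, 2 and 3 (-3.48 ± 0.75). In protein_coding transcripts alone the difference fell to -1.72, because Ell had only coding transcripts while Ell2 had 30.7 ± 10.9 of its 105 TPM in them. Ell3 also shares 65.6% of its exon bases with Serinc4 on the same strand. Ccnt1 minus Ccnt2 was -0.79, -1.35 and -1.06, a mean of -1.07 ± 0.28, and 3 of 3 libraries had Ccnt2 higher. That margin narrowed to -0.39 in protein_coding transcripts and to -0.21 in the quantification from the reads.

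**Figure D2:**
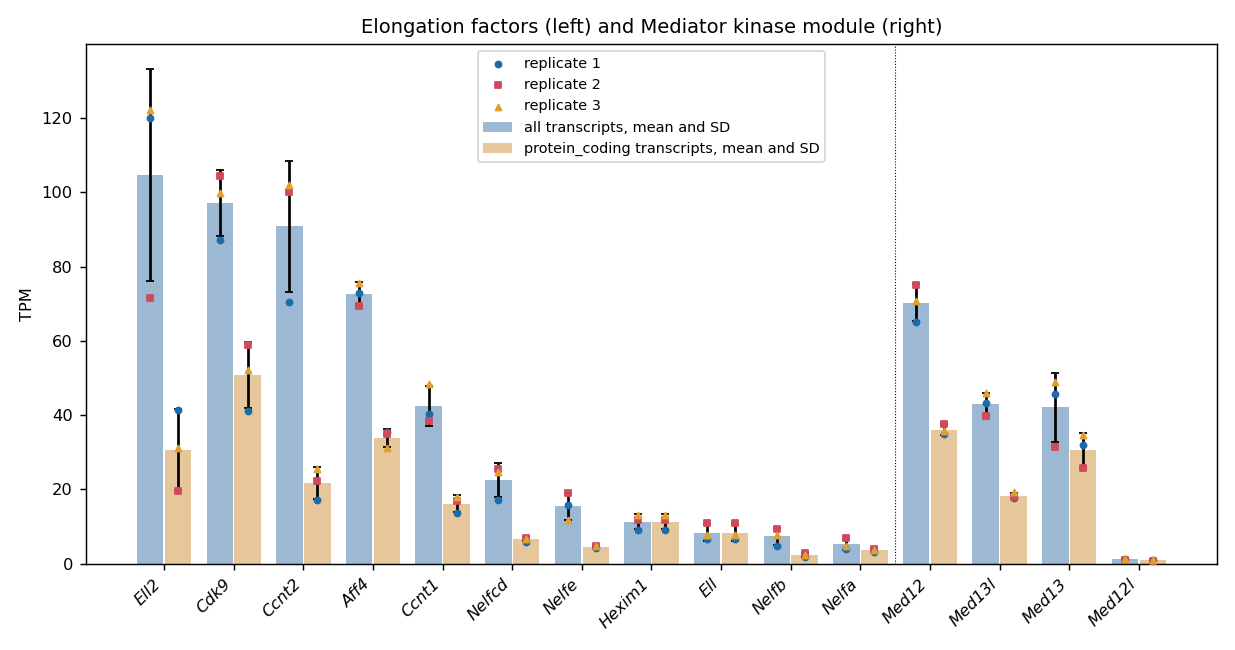
TPM of the 11 detected elongation genes and the 4 Mediator kinase module genes. Blue bars are all transcripts and sand bars transcripts annotated protein_coding, each as mean and SD of 3 libraries, with the libraries as points. Hexim1 and Ell have equal bars, while Ell2, at 105 TPM in all transcripts, has 30.7 TPM in coding ones.

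The plot of all against protein_coding transcripts shows how far annotation type matters on chromatin. Over all 84 detected genes the median was 3.69 TPM in protein_coding transcripts, against 7.75 TPM in all transcripts. Over detected protein-coding genes in general the 2 medians were 4.01 and 7.32 TPM. By coding transcripts in the gene-level quantification Cdk9 led the elongation genes (50.8 ± 8.90 TPM), followed by Aff4 (33.9 ± 2.38), Ell2 (30.7 ± 10.9) and Ccnt2 (21.7 ± 4.25). From the reads the order differed, with 66.2 TPM for Ell2, 59.9 for Aff4, 36.3 for Cdk9 and 18.0 for Ccnt2. Cdk9 itself had 38.8% ± 5.60 of its TPM in transcripts annotated for nonsense-mediated decay, a pathway that destroys RNAs with early stop codons. Its coding transcript Cdk9-202, of 1565 bases, had 3.06, 28.0 and 24.8 TPM in replicates 1, 2 and 3, and 1.13, 9.26 and 11.1 TPM in the quantification from the reads. It was low in replicate 1 in both, while Cdk9-201 was highest there at 37.7 TPM, against 27.6 and 26.1 TPM in replicates 2 and 3.

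**Figure D3:**
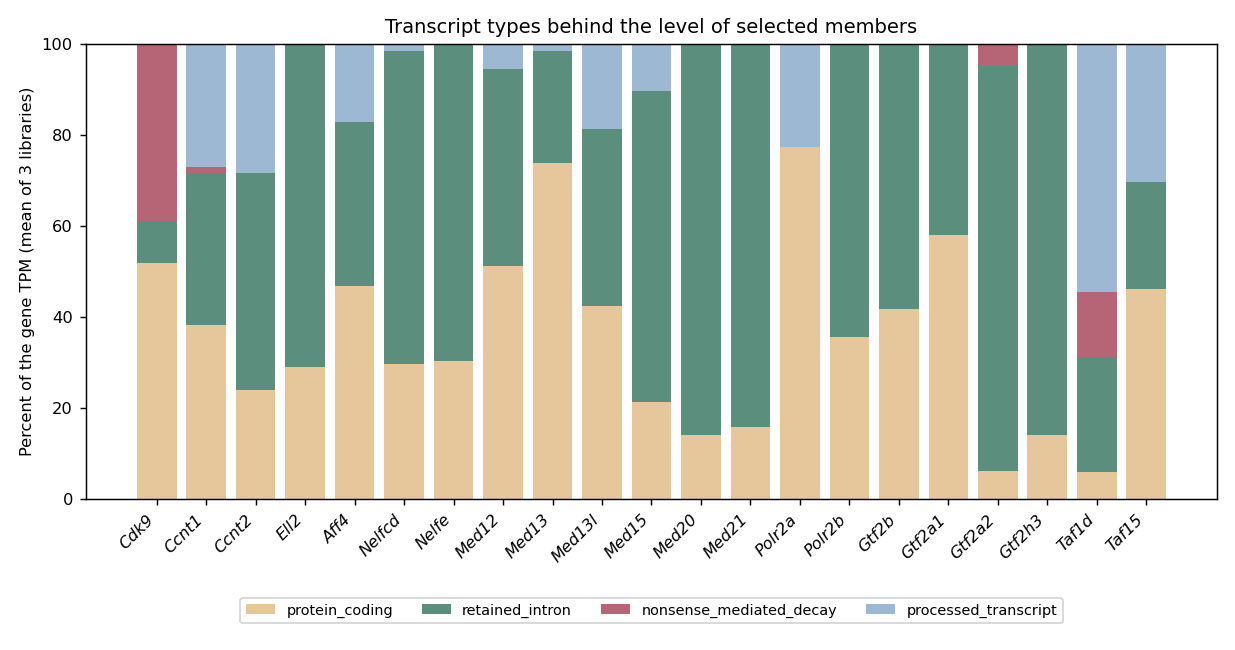
Mean percent of a gene's TPM (3 libraries) in each annotated transcript type, for 21 members discussed in the text. Retained-intron transcripts hold 89.1% of Gtf2a2 and 70.8% of Ell2, while Polr2a is 77.5% protein_coding.

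The transcript types behind each gene are drawn in the plot of percent of TPM by type. Chromatin RNA holds unspliced transcripts, whose intron reads were not separated here from those of retained-intron transcripts. A share is therefore an assignment to annotated transcripts and not a measure of isoform use. Retained-intron transcripts held a median of 41.9% of TPM over the 55 members at 1 TPM or more that have such a transcript, and 41.8% over 6285 protein-coding genes under the same minimum. From the reads these medians were 49.9% and 42.9%. Single genes ranged widely, and their shares moved with the quantification. The highest shares in the gene-level quantification were 89.1% ± 2.15 for Gtf2a2, 85.8% ± 1.24 for Med20, 85.8% ± 3.34 for Gtf2h3, 84.1% ± 2.23 for Med21 and 74.8% ± 4.99 for Med24. From the reads the highest were Gtf2h3 (93.5%), Med20 (92.5%), Polr2f (90.9%), Med4 (88.7%) and Ccnt1 (79.02%), and Gtf2a2 and Ell2 had 65.5% and 49.9%. Among the elongation genes the share was 70.8% ± 4.81 for Ell2, 69.6% ± 8.79 for Nelfe and 68.9% ± 4.41 for Nelfcd, and among the kinase module genes 43.1% ± 2.23 for Med12 and 24.6% ± 7.36 for Med13. Polr2a has no transcript annotated as retained intron, so it could have no such share. Of its TPM, 77.5% ± 4.79 was protein_coding and 22.5% ± 4.79 in processed transcripts, against 58.4% and 41.6% from the reads.

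**Figure D4:**
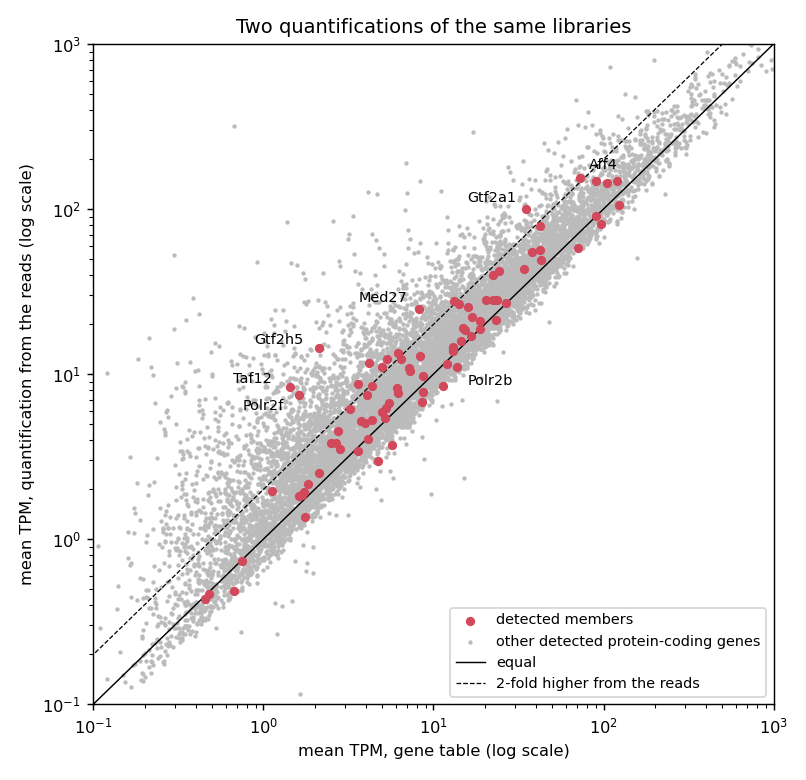
Mean TPM of 3 libraries in the quantification from the reads against that in the gene table (log scales). Red points are the 84 detected members and grey points the other detected protein-coding genes. Gtf2h5, Taf12 and Polr2f lie farthest above the dashed 2-fold line among the members, and no member lies below the equal line by 2-fold.

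The scatter of the 2 quantifications shows where a member's level depended on the method. Of the 84 genes, 65 (77.4%) were higher in the quantification from the reads, against a background of 77.1%, and 12 (14.3%) were over 2-fold higher, against 20.1%. None was over 2-fold lower, against 0.274%. The 12 were Gtf2h5 (6.84 times), Taf12 (5.83), Polr2f (4.58), Med27 (3.02), Gtf2a1 (2.83), Med16 (2.80), Polr2k (2.43), Gtf2h3 (2.31), Med17 (2.21), Polr2m (2.16), Aff4 (2.14) and Med6 (2.08). The order of the elongation genes changed with it. Aff4 came first at 155 TPM, ahead of Ell2 at 143, Ccnt2 at 91.1, Cdk9 at 81.4 and Ccnt1 at 79.1 TPM.

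Counts varied between libraries beyond counting noise in 44 of the 84 genes (52.4%). The test was a chi-square test of rounded counts against Poisson sampling, with Benjamini-Hochberg adjustment over all 14320 genes at 0.05, and it called 55.0% of all genes tested and 57.7% of the protein-coding genes among these, so the share among the members is near the background. The counts were 37, 17 and 34 without replicates 1, 2 and 3, and the shares of all genes called in the same way were 43.8%, 27.9% and 41.7%, so the fall without replicate 2 was shared by other genes. The SD of log2 CPM had a median of 0.214 over the members and 0.238 over detected protein-coding genes, and it was above 0.5 in 8 members (9.52%), against 14.7%. By log2 CPM, replicate 2, made from the least RNA, was the lowest library for 40 of the 84 genes (47.6%), against a background of 36.2%. It was the highest for 28 (33.3%), against 40.8%. Replicate 1 was also the highest for 28 genes (33.3%), against 29.2%, and the lowest for 20, against 30.5%. The direction depended on the measure. By TPM the member median was highest in replicate 2, at 9.17, against 6.07 and 7.22 in replicates 1 and 3. Over detected protein-coding genes the TPM medians were 6.05, 8.755 and 7.13 in replicates 1, 2 and 3. The part of RNA input in these differences was not tested.

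Ell2 had the lowest adjusted p of the members, with 3748, 2654 and 4271 counts in replicates 1, 2 and 3 (adjusted p = 9.57e-188 by the chi-square test). Med13 followed with 4645, 3806 and 4809 counts (adjusted p = 9.56e-127) and Taf15 with 1325, 989 and 1263 counts (adjusted p = 8.43e-45). All 3 were lowest in replicate 2. Gtf2b had 616, 529 and 925 counts (adjusted p = 1.96e-40) and Med21 had 306, 165 and 410 counts (adjusted p = 2.28e-33). Gtf2b and Med21 were also lowest in replicate 2, and there Ell2, Gtf2b and Med21 deviated from their own means by -0.62, -0.57 and -0.96 log2 CPM. Taf4b, Polr2j and Taf13 shared that direction at lower counts, while Polr2e, Taf9b, Gtf2h3 and Taf11 were highest in replicate 2. Taf11 had 96.8, 213 and 91.7 counts and Gtf2h3 had 55, 146 and 68 counts, with adjusted p of 1.07e-07 and 4.73e-06. Taf9b did not pass the threshold (adjusted p = 0.114). Polr2a, at a mean of 2353 counts, is an example of a gene that did not pass either (adjusted p = 0.158, SD of log2 CPM 0.043), as did Taf1d (adjusted p = 0.149, SD 0.046).

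**Figure D5:**
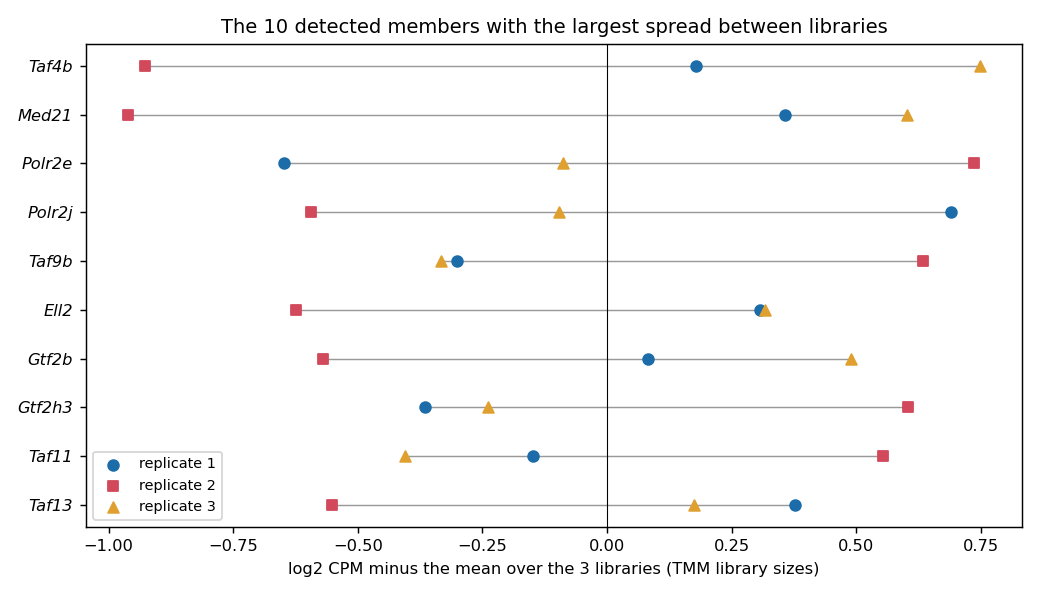
Log2 CPM of each library minus the mean of the 3 libraries, for the 10 detected members with the largest SD. Replicate 2 (squares) is the lowest library for 6 genes, Taf4b, Med21, Polr2j, Ell2, Gtf2b and Taf13, and the highest for the other 4.

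The promoters of Med21 and Taf13 are printed because both genes moved the same way in the plot of library deviations. Each stretch is RefSeq sequence (GRCm38.p6) upstream of the annotated start, cut where the first GENCODE exon begins, at chr6:146642329-146642546 (218 bases, plus strand) and chr3:108571449-108571697 (249 bases, plus strand). Capitals mark TGACGTCA (the cAMP response element) and CCGCCC (the GC box GGGCGG on the other strand) in Med21, and CCGGAA (the ETS core), TATAAA (the TATA box) and GGGCGG in Taf13.
Med21: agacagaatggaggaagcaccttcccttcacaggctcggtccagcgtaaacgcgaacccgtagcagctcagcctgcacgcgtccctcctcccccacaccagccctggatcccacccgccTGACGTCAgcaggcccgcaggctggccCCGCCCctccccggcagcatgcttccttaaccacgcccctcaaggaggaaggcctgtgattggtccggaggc
Taf13: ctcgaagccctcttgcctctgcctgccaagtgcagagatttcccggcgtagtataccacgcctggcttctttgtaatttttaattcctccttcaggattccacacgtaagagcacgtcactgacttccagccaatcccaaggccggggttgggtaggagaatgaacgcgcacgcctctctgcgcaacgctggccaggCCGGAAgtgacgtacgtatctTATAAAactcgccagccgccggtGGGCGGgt
The 2 promoters share the GC box and no other motif searched. The GC box occurred among genes of both directions, and no promoter was available for Taf4b. Of the other genes lowest in replicate 2, Ell2 and Polr2j also had it, while Gtf2b had none of the motifs. Of those highest in replicate 2, Polr2e, Taf9b and Taf11 had it in a promoter and Gtf2h3 did not. Taf9b and Taf11 each also had a promoter without it. A link between motif and deviation was not tested. Over the 250 bases upstream and on both strands, GGGCGG was in 62.8% of the 94 promoters of the 79 members found in the RefSeq table, against 32.7% of all 32817 promoters. CCGGAA was in 31.9% and 12.0%, TATAAA in 13.8% and 12.4%, TGACGTCA in 4.26% and 1.55%, the AP-1 site TGANTCA in 3.19% and 6.75%, the NF-kB motif (GGGA and CC with 4 bases of any kind between) in 16.0% and 17.6%, and the palindromic NRF1 motif in 0% and 0.777%. The motifs do not overlap each other in the sequences printed. These are matches of letters, not sites shown to be bound.

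Partner genes of the same pathway, outside the 92, were taken as a list of 36 genes. Of these, 34 were detected, with a median of 9.49 TPM over those detected, and 21 of the 34 varied beyond counting noise, against the background of 55.0%. The highest were Aff1, the other large scaffold of the super elongation complex, with 86.7, 84.1 and 91.0 TPM (87.3 ± 3.46), and Paf1, which names the PAF elongation complex, with 95.1, 71.8 and 92.6 TPM (86.5 ± 12.8). Cdk12, which phosphorylates the polymerase during elongation, had 79.7, 76.1 and 98.0 TPM (84.6 ± 11.7). Supt5, part of the pausing and elongation factor DSIF, had 40.7 ± 5.27 TPM, and its small partner gene Supt4a 3.15 TPM. Tbp, the TATA-binding core of TFIID, had 9.15 TPM, and the 7SK-binding genes Mepce and Larp7 had 6.39 and 5.16 TPM. Aff3 and Eaf2 were not detected.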

How the data were processed

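Chromatin-fraction RNA of 3 libraries of 1 group was used. The authors deposited, per library, gene and transcript tables in RSEM layout with expected counts and TPM, and reads-based transcript tables in kallisto layout with estimated counts and TPM. The deposited gene tables also hold a posterior SD of each count, entered as a score, which no result here uses. Per the file headers, reads were set against mm10 with GENCODE annotation M21. The aligner, its version and the use of strand were not given in the sources used here. Deposited TPM scale a length-adjusted count to 1000000 per library, so a few counts on a short transcript weigh heavily.

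Genes were used by symbol, and 26345 entries without an annotated gene, holding 1.13%, 0.324% and 0.279% of counts in replicates 1, 2 and 3, were left out. Means and SDs are over 3 libraries. A gene was detected at a mean of at least 10 counts. Expected counts were rounded and tested per gene against Poisson sampling with TMM library sizes (chi-square, 2 degrees of freedom), with Benjamini-Hochberg adjustment over 14320 genes and a threshold of 0.05. Since counts of sequenced reads are not independent molecules, limits on a count of 0 cover counting error only. Log2 CPM used a prior count of 0.5, paralog ratios log2(TPM + 1). With 1 group no contrast was fitted. Transcript shares used members at 1 TPM or more.

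Tools were R 4.3.3, edgeR 4.0.16, DESeq2 1.42.0 (size factors only), Python 3.11.15, pandas 2.3.3, numpy 2.4.6, scipy 1.17.1 and matplotlib 3.10.9. Genes given per library are a list of central factors, the 3 highest and 2 lowest detected per role, those with the largest spread and those over 2-fold apart between quantifications. The members, the partner list and the markers were chosen with earlier results of these data known. Other minimums, scalings, the reads-based tables and leaving out each library were tried. Counting only protein_coding transcripts, detection in single libraries and adjustment over protein-coding genes were added after seeing the data.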

Additional observations from a re-analysis of the deposited data

How the results depend on the processing

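The number of detected genes stayed between 76 and 90 under every alternative tried, against 84. The median TPM of 7.75 became 25.6 when TPM were rescaled over protein-coding genes, 11.3 in the quantification from the reads and 3.69 in protein_coding transcripts alone, and ranged over 6.75 to 8.79 with 1 library left out. The median percentile of 73.3 was 72.3 by CPM, 72.9 from the reads and 73.2 to 73.5 with 1 library left out. It was 51.4 for the 84 detected genes ranked among detected protein-coding genes. The 44 genes that varied beyond counting noise became 8 by an SD of log2 CPM above 0.5 in place of the test (9.52%, against 14.7% of detected protein-coding genes), and 17 to 37 with 1 library left out, a test of fewer samples. Under DESeq2 size factors the count was 43 and under total count scaling 49. No paralog pair that differed beyond its spread changed sign, while Med13 minus Med13l, -0.05 on the log2 scale, was 0.17 from the reads and 0.71 in protein_coding transcripts. The cause of these moves was not tested. Of 77 named TPM values, 30 stayed within 1 SD from the reads and 28 in protein_coding transcripts. No paired analysis was possible because all libraries belong to 1 group, so no groups share replicate numbers, and only differences between genes were taken within each library. Depth limits genes near 10 counts, such as Polr2f and Polr2k.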
